A study of Mus musculus with 6 samples.

Results

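The genes of gluconeogenesis were examined in small intestinal organoids cultured with low-density lipoprotein (LDL) or with PBS. The set held 8 genes of 55416 in the deposited table, namely Pcx, Pck1, Pck2, Fbp1, Fbp2, G6pc1, G6pc3 and Slc37a4, which were chosen by symbol as the enzymes and the transporter that are particular to the pathway. All 8 passed the filter for testing, a mean normalized count of at least 10 over the libraries. Organoids were grown from duodenal and jejunal crypts of 3 WT C57BL/6 mice for 5 days with 50 μg/ml LDL or with PBS, and each mouse gave 1 library to each treatment, so 3 LDL-treated and 3 PBS-treated libraries were compared. The organoids hold epithelium without the tissue around it, and their cells were not sorted.

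Gluconeogenesis makes glucose from lactate, amino acids and glycerol, and it runs in liver, kidney and, to a lesser degree, small intestine. Most of its steps are glycolytic enzymes working backwards, and the members of this set carry out the steps that glycolysis cannot reverse. Pyruvate carboxylase (Pcx) makes oxaloacetate in mitochondria, and phosphoenolpyruvate carboxykinase turns oxaloacetate into phosphoenolpyruvate, either in the cytosol (Pck1) or in mitochondria (Pck2). Fructose-1,6-bisphosphatase (Fbp1, known from liver and kidney, and Fbp2, known from muscle) and glucose-6-phosphatase (G6pc1, the gluconeogenic form, and G6pc3, which is widely expressed) remove phosphate, and Slc37a4 carries glucose-6-phosphate into the endoplasmic reticulum, where the last step takes place. In the small intestine the pathway is mainly known from absorptive enterocytes, while members such as G6pc3 are not limited to them.

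Promoters were compared because the carboxykinase genes are textbook targets of different factors, the cyclic AMP response pathway for Pck1 and ATF4, a factor of the amino acid and stress response, for Pck2. All 8 genes had at least 1 promoter among RefSeq's promoter sequences (build GRCm38.p6), and each of these sequences was found exactly once on its chromosome in GRCm39, the build of the deposited table. The 250 bases before the RefSeq start sites of Pck1 (chr2:172994616-172994865, + strand), Pck2 (chr14:55777473-55777722, + strand) and G6pc1 (chr11:101258292-101258541, + strand) are shown 5′ to 3′, the last as the other member with a match to the ATF4-type motif. GENCODE has transcripts of these genes that start 122, 181 and 173 bases further upstream. Capitals mark TTACGTCA, a variant of the cyclic AMP response element, in Pck1 and the core TGATGNAA of the C/EBP-ATF response element, which lies on the opposite strand, in Pck2 and G6pc1.
Pck1: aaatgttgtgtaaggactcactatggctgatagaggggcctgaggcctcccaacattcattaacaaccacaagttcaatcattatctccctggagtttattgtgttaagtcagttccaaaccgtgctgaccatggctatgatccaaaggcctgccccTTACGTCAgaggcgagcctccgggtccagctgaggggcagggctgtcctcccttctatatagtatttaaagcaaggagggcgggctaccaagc
Pck2: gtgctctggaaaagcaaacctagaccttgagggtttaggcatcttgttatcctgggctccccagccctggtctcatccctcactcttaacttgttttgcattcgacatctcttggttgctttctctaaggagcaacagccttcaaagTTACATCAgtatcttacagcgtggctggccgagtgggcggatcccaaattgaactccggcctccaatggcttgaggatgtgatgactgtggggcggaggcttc
G6pc1: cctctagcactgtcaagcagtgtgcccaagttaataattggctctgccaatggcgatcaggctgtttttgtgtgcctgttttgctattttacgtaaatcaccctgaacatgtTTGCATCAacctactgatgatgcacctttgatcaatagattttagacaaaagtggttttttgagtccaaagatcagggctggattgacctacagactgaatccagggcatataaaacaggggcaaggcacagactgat

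On both strands of the same 250 bases, 6 motifs were searched. TTACGTCA lay 93 to 86 bases before the start of Pck1, in no other member, and in 0.448% of 32851 promoters. TGATGNAA lay 103 to 96 bases before the start of Pck2 and 138 to 131 bases before that of G6pc1, and in 3.45% of all promoters. The full cyclic AMP response element TGACGTCA (1.55% of promoters) and the FOXO core GTAAACA (3.17%) were in none of the members' promoters. AGGTCA, the core bound by many nuclear receptors (14.0%), and the TATA box TATAAA (12.4%) were each in a promoter of G6pc1 and of Slc37a4. The motifs do not overlap in these promoters, and a match describes the letters and is not a measured binding site.

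Between 22061545 and 31073360 reads lay on genes per library, and 18S ribosomal RNA took 7.62% of them in the LDL-treated library of mouse 1 and 3.02% in the PBS-treated library of mouse 2, against 0.0826% to 0.225% in the others. Levels of different genes were compared per length, as normalized counts (reads divided by 1 size factor for the library) per kilobase of exon in the GENCODE M39 annotation. In PBS-treated organoids the order was Fbp2 with 682 ± 121 per kilobase, Pck2 with 347 ± 38.9, Slc37a4 with 167 ± 23.3, G6pc3 with 112 ± 15.2, Fbp1 with 112 ± 22.8, G6pc1 with 71.6 ± 44.8, Pcx with 35.9 ± 3.58 and Pck1 with 4.0 ± 1.57 (SD, n = 3 each). In this order the ranges of the libraries did not meet between Fbp2 and Pck2, Pck2 and Slc37a4, Slc37a4 and G6pc3, or Pcx and Pck1, while G6pc3, Fbp1, G6pc1 and Pcx each overlapped their neighbors among these genes. In LDL-treated organoids Fbp2 kept the highest level, 754 ± 152 per kilobase, and Pck2, at 141 ± 32.4, came to the level of Slc37a4, at 139 ± 41.9 (SD, n = 3 each). The lengths of single canonical transcripts gave the same positions for Fbp2, G6pc1, Pcx and Pck1 in both treatments, while G6pc3 came before Slc37a4, and with LDL both came before Pck2.

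**Figure D1:**
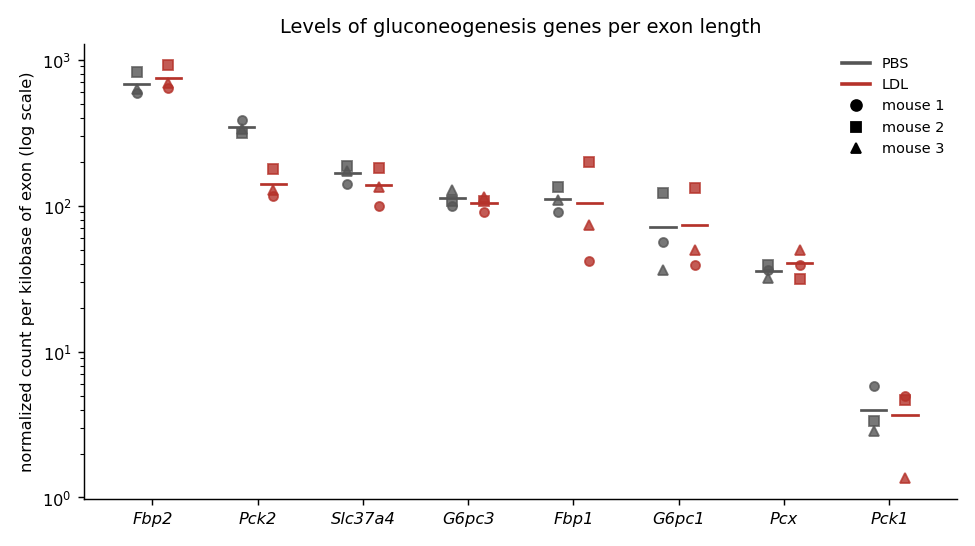
Normalized counts per kilobase of exon on a log scale for the 8 gluconeogenesis genes, ordered by their mean with PBS. Points are libraries, with the shape giving the mouse, and bars are means of 3 libraries. Fbp2 lies highest, near 700, Pck1 lies under 6 in all libraries, and Pck2 is the gene whose PBS and LDL points stand apart.

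Pck2 was lower with LDL, and no other member passed the test used. A call required both a change exceeding 1.5-fold and an adjusted p below 0.05 in limma, fitted to log2 values of all 18459 tested genes. No member was called higher, where 0.878% of all tested genes were, and 1 of 8, Pck2, was called lower, where 0.395% were. With the mouse as a block in the fit, the members' calls were the same, while 5.68% and 3.46% of all tested genes were called higher and lower. Pck2 was also the 1 member whose treatments did not overlap, which held for 24.2% of all tested genes. The median log2 fold change of the 8 members was -0.17, beside -0.02 over all tested genes, with 3 members higher and 5 lower in the mean. In these bulk samples a lower value may come from fewer cells that express a gene or from less RNA per cell, which cannot be told apart.

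**Figure D2:**
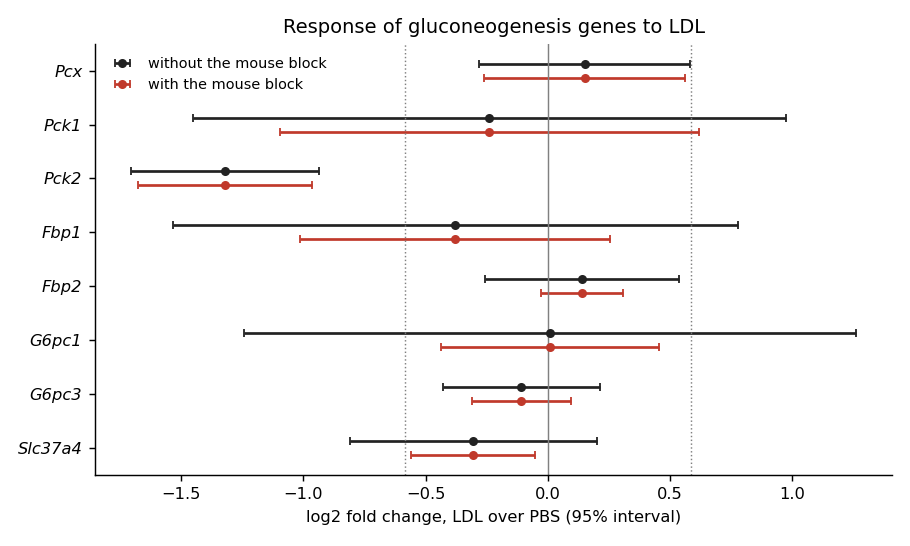
Log2 fold change of each gluconeogenesis gene, LDL over PBS, with its 95% interval from limma without (black) and with (red) the mouse as a block. Dotted lines mark changes of 1.5-fold. Only the intervals of Pck2, from -1.70 to -0.94 and from -1.68 to -0.96, lie beyond the dotted lines.

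Pck2 (ENSMUSG00000040618, chromosome 14, 55777542 to 55788758, GRCm39) encodes the mitochondrial carboxykinase. Its normalized counts in mice 1, 2 and 3 were 3263, 2628 and 2822 with PBS and 974.5, 1485 and 1071 with LDL. Each LDL-treated library was thus below each PBS-treated one, with the LDL-treated library of mouse 2 closest to them. The mean fell from 2904 ± 326 to 1177 ± 271 (SD, n = 3), which was 2.50-fold lower on the fitted scale (log2 fold change -1.32, standard error 0.17, adjusted p = 0.0157 from limma). With the mouse block the standard error was 0.15 (adjusted p = 0.00185 from limma). Within a mouse, the LDL-treated value was 0.299, 0.565 and 0.380 of the PBS-treated value in mice 1, 2 and 3. The mice themselves hardly differed in Pck2, since the mean over both treatments was 2119, 2057 and 1946. Among the 73 genes called lower, Pck2 had the eighth highest level and its fall was the 36th largest. The call was lost without some of the libraries. The log2 fold change stayed between -1.5 and -1.2 with any 1 library left out, while the adjusted p from limma was 0.0943, 0.0534 and 0.0867 when the PBS-treated library of mouse 1, 2 or 3 was left out and 0.110 when the LDL-treated one of mouse 3 was. Over the whole table, 3, 9, 7 and 2 genes were called lower in these fits, in the same order, against 73 with all libraries. Without both libraries of mouse 3 the log2 fold change was -1.28 and no gene at all was called (adjusted p = 0.522 from limma). An antisense lncRNA gene, Gm10876, shares 53 exon bases with Pck2 and had a normalized count of at most 6.10 in any library.

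Pck1 (ENSMUSG00000027513, chromosome 2, 172994744 to 173001066) encodes the cytosolic carboxykinase, the form long taken as a marker of hepatic gluconeogenesis. It was the lowest member, with 21, 10 and 13 reads in the PBS-treated and 15, 19 and 6 reads in the LDL-treated libraries of mice 1, 2 and 3. Exact 95% Poisson intervals, which cover counting error only, ran from 4.80 to 18.4 for 10 reads and from 11.4 to 29.7 for 19 reads, so differences of this size were not detectable at this depth. The normalized count was 14.8 ± 5.81 with PBS and 13.5 ± 7.39 with LDL (SD, n = 3), and it was lower with LDL in mice 1 and 3 and higher in mouse 2. The difference did not pass the test (log2 fold change -0.24, adjusted p = 0.848 from limma), and its 95% interval, 0.366-fold to 1.96-fold, holds both a marked fall and a rise. Its sign turned when the PBS-treated library of mouse 1 (0.04), the LDL-treated library of mouse 3 (0.31) or both libraries of mouse 3 (0.11) were left out.

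Pck2 was the main carboxykinase transcript in all libraries. Per kilobase of exon, Pck2 exceeded Pck1 by 67.3-, 93.5- and 118-fold in the PBS-treated libraries of mice 1, 2 and 3, and by 23.5-, 37.99- and 94.4-fold in the LDL-treated libraries. The excess was smaller with LDL in each mouse, but the treatments overlapped. With canonical transcript lengths it ran from 30.6-fold to 153-fold over all libraries. As a log2 difference between the genes, Pck1 minus Pck2 was 1.08 higher with LDL, and higher by 1.52, 1.27 and 0.45 within mice 1, 2 and 3. An exact two-sided permutation test over the 6 libraries, without the pairing by mouse, gave p = 0.2, but its smallest possible value is 0.1, so this design could not reach 0.05.

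**Figure D3:**
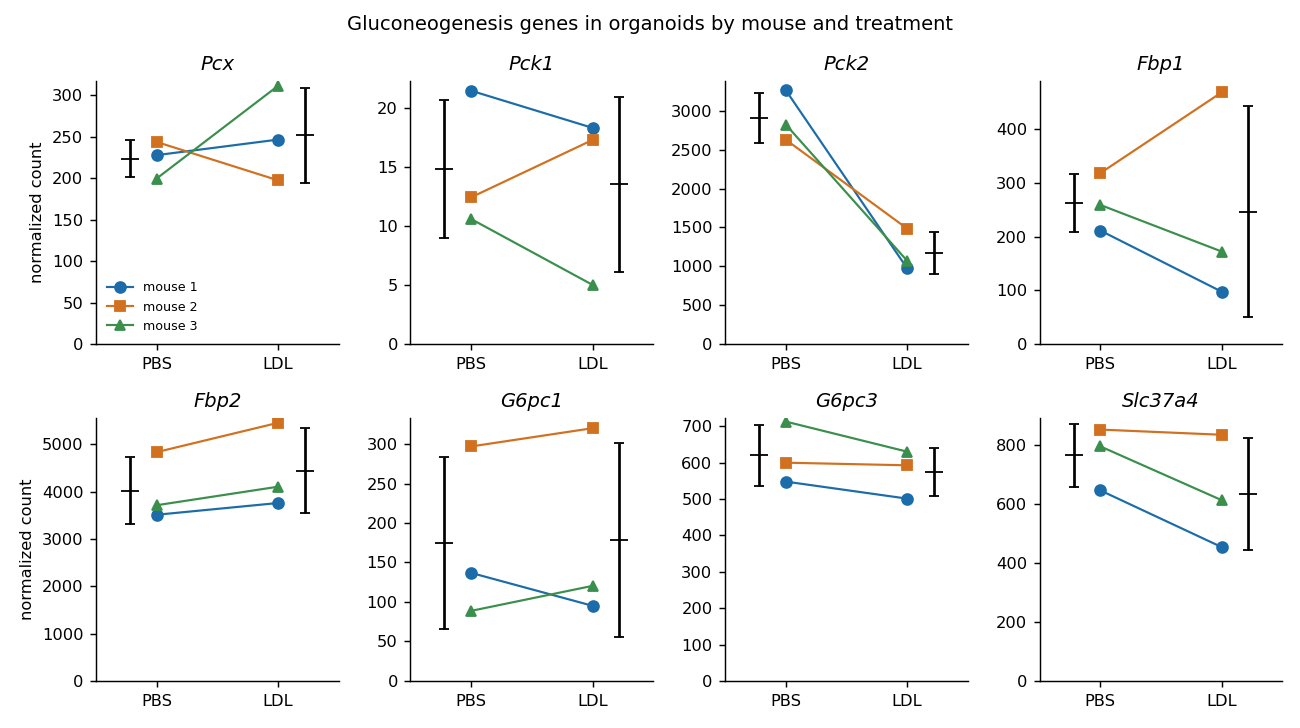
Normalized counts of the 8 gluconeogenesis genes with PBS and LDL, joined by lines within each of the 3 mice, with each axis starting at 0. Black bars beside the points are means ± SD (n = 3). All lines of Pck2 fall steeply, from between 2628 and 3263 to between 974.5 and 1485, while the lines of Pck1, Pcx, Fbp1 and G6pc1 run in different directions.

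Pcx (ENSMUSG00000024892, chromosome 19, 4559902 to 4672189) supplies the oxaloacetate that both carboxykinases use. Its normalized counts in mice 1, 2 and 3 were 228, 244 and 199 with PBS and 246, 197 and 311 with LDL. Values were higher with LDL in mice 1 and 3 and lower in mouse 2, and the treatments overlapped. The log2 fold change was 0.15, with a 95% interval of the fold change from 0.823 to 1.495 (adjusted p = 0.712 from limma). Its exons share 144 bases with Lrfn4 and 395 bases with Rce1 on the opposite strand, and the strand setting of the counting is not given in the sources used here.

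Fructose-1,6-bisphosphatase was represented mainly by Fbp2 (ENSMUSG00000021456, chromosome 13, 62984691 to 63006552), the most abundant member. Its normalized counts in mice 1, 2 and 3 were 3510, 4833 and 3711 with PBS and 3758, 5452 and 4102 with LDL. The LDL-treated value exceeded the PBS-treated value by 1.07-, 1.13- and 1.11-fold, a small difference in the same direction in all mice that did not pass the test without the block (log2 fold change 0.14, adjusted p = 0.711 from limma) or with it (adjusted p = 0.244 from limma). With the block the 95% interval of the log2 fold change ran from -0.03 to 0.31, below a change of 1.5-fold. Fbp1 (ENSMUSG00000069805, chromosome 13, 63012567 to 63036263) lies next to Fbp2 on the same strand. Its normalized counts were 211, 318 and 259 with PBS and 97.6, 468 and 172 with LDL. LDL-treated organoids thus had the lowest and the highest values, and the change was 0.462-fold, 1.47-fold and 0.665-fold in mice 1, 2 and 3. Fbp1 did not pass the test (log2 fold change -0.38, adjusted p = 0.732 from limma), but it was called lower when mouse 2's LDL-treated library was left out (log2 fold change -0.99, adjusted p = 0.0385 from limma). In that fit 1133 of all 18459 tested genes were called lower, against 73 with all libraries. Per kilobase of exon, Fbp2 exceeded Fbp1 between 4.65-fold and 15.4-fold in the 6 libraries, both ends of this range being LDL-treated. With canonical transcript lengths the excess ran from 11.1-fold to 36.7-fold.

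Glucose-6-phosphatase and its transporter release free glucose. G6pc1 (ENSMUSG00000078650, chromosome 11, 101258369 to 101268729) had normalized counts of 137, 297 and 88.7 with PBS and 95.1, 320.1 and 120.4 with LDL in mice 1, 2 and 3. Mouse 2 stood above the other mice in both treatments, and LDL and PBS differed little beside that. Averaged over treatments, the highest mouse exceeded the lowest 2.95-fold for G6pc1, whereas the log2 fold change between treatments was 0.01 (adjusted p = 0.997 from limma), with a 95% interval from 0.422-fold to 2.40-fold. With the mouse block the interval of the log2 fold change narrowed to between -0.44 and 0.45. Its sign flipped with quantile normalization (-0.06). G6pc3 (ENSMUSG00000034793, chromosome 11, 102080410 to 102088876) had normalized counts of 548, 600.2 and 713 with PBS and 501, 593 and 630.5 with LDL. It was lower with LDL in each mouse by a small amount, and the log2 fold change of -0.11 did not pass the test (adjusted p = 0.721 from limma). G6pc3 shares 2826 of its 5534 exon bases with Hdac5 on the opposite strand, which had normalized counts of 422 to 469 with PBS and 217 to 403 with LDL. Per kilobase, G6pc1 exceeded G6pc3 only in mouse 2, by 1.13-fold with PBS and 1.23-fold with LDL. With canonical transcript lengths G6pc3 was higher in every library, at least 2.86-fold.

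Slc37a4 (ENSMUSG00000032114, chromosome 9, 44308144 to 44314265) had normalized counts of 646, 852 and 795 with PBS and 454, 835 and 613 with LDL in mice 1, 2 and 3. It was lower with LDL in each mouse, at 0.702, 0.979 and 0.771 of the PBS-treated value. The log2 fold change was -0.30 and was not called without the block (adjusted p = 0.494 from limma) or with it (adjusted p = 0.103 from limma). Most of its exon bases, 4112 of 4572, overlap Trappc4 on the opposite strand, so that reads of the pair could not be separated without strand. Trappc4 had normalized counts of 239 to 286 with PBS and 166 to 292 with LDL.

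Mice differed more than treatments for several members. Fbp1, Fbp2, G6pc1 and Slc37a4 were highest in mouse 2 in both treatments, with ratios of the highest to the lowest mouse of 2.55, 1.42, 2.95 and 1.53. The sum of 18 enterocyte markers was also highest in mouse 2, at 133537 against 74754 and 75865 normalized counts with PBS and at 214552 against 115471 and 131207 with LDL. Of these markers 2 were called higher with LDL, Alpi and Fabp1, and none was called lower, while 8 and 3 were with the mouse block. Summed goblet cell markers were 26857 to 32188 with LDL and 44449 to 49968 with PBS, with Clca1 called higher and Agr2 and Fcgbp lower. Summed Paneth cell markers were 10389 to 12902 with LDL and 13456 to 22023 with PBS. No stem cell, Paneth cell, enteroendocrine or tuft cell marker was called without the block. With the block, 1 stem cell marker was called higher and 2 lower, and 2 Paneth cell markers higher and 2 lower. For enteroendocrine and for tuft cell markers, the block gave 1 call, lower, each. The sum of 10 stromal and immune markers was 206 to 335 with PBS and 169 to 235 with LDL. Most of it came from Vim (68.2 to 140 normalized counts over all libraries) and Lyz2 (75.8 to 164), with Pecam1 at 7.28 to 18.4. The other 7 markers had at most 12.2 in any library. Of these, Col1a1, Ptprc and Cd3e had reads in every library, while Dcn was at 0 in all PBS-treated libraries and in the LDL-treated library of mouse 2, Col3a1 in the PBS-treated libraries of mice 1 and 2, Pdgfra in that of mouse 1 and Col1a2 in the LDL-treated library of mouse 2. Dcn and Col3a1 were highest in the LDL-treated libraries of mice 1 (4.88 and 8.54) and 3 (2.51 and 5.85). The part of cell composition in the members' values was not tested.

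Other genes of the pathway were counted in lists drawn up by hand. Of 13 tested genes of the reversible steps shared with glycolysis, none was called in either direction without or with the mouse block, and their median log2 fold change was -0.03. Gapdh (0.29) and Pgm1 (0.28) had the highest values and Eno3 (-0.46) and Pgam2 (-0.43) the lowest. Of 13 genes of the opposing glycolytic steps, none was called without the block, and Hk1 (hexokinase, log2 fold change 1.32) and Pfkfb3 (which makes the allosteric activator of phosphofructokinase and inhibitor of fructose-1,6-bisphosphatase, 1.22) were called higher with it (adjusted p = 0.137 and 0.116 without the block, from limma).
Of 18 genes that supply substrates, Gpt2, the mitochondrial alanine aminotransferase that yields pyruvate, was called lower (515 ± 64.8 with PBS and 176 ± 35.5 with LDL, SD, n = 3, log2 fold change -1.56, adjusted p = 0.0104 from limma). The pyruvate carrier gene Mpc1 (-0.68) was called lower only with the block. Among 8 genes of glycerol entry and of glycerol phosphate use, Aqp3, an aquaglyceroporin, was called higher (6.19 ± 6.68 with PBS and 71.8 ± 16.3 with LDL, SD, n = 3, log2 fold change 3.80, adjusted p = 0.0469 from limma), and Gpam (-0.94) was called lower with the block. Aqp3 had only 4.08, 13.7 and 0.814 normalized counts with PBS in mice 1, 2 and 3, so its fold change rests on few reads. Of 27 regulators of gluconeogenic transcription, which included Foxo1, Ppargc1a, Creb1, Crtc2, Hnf4a and Nr3c1, none was called, and Nr4a1 (1.196) and Ppard (0.76) were called higher with the block.

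Many of the listed genes regarded as targets of ATF4 were, like Pck2, lower with LDL. Of 23 tested genes on that list, which does not hold Pck2 and shares Gpt2 with the substrate list, 10 were called lower and none higher. Over all tested genes, 0.395% were called lower and 0.878% higher. On the list, 21 genes had a lower mean with LDL, and the median log2 fold change was -0.71. The list was chosen with earlier results of these data known, so its counts are not independent support. A part of ATF4 in the fall of Pck2 was not tested. The largest falls were those of Aldh1l2, a mitochondrial folate enzyme (-3.60), Chac1, which degrades glutathione (-1.91), Cth of cysteine synthesis (-1.89) and Stc2 (-1.85). With the block 14 genes of the list were called lower, beside 3.46% of all tested genes, and Atf3 (1.33) was called higher. Not all members of the list were lower, as Slc7a11, with a log2 fold change of 0.89, had a higher mean with LDL, like Atf3. Ddit3 was only slightly lower, at -0.12, and neither Slc7a11 nor Ddit3 was called. G6pc1, whose promoter also holds the TGATGNAA core shown above, had a log2 fold change of 0.01, and Pck2 had -1.32.

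**Figure D4:**
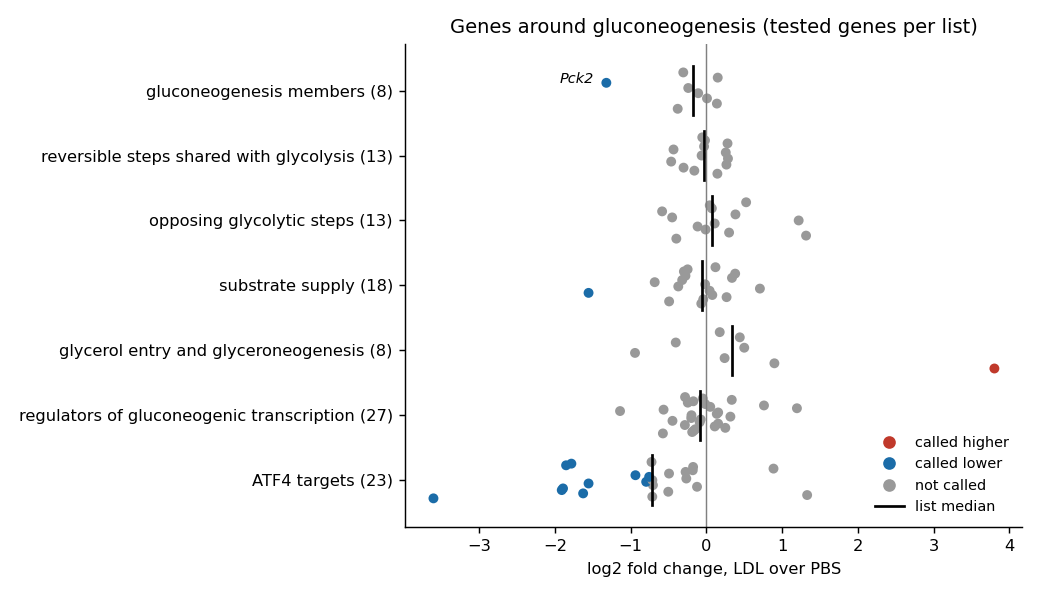
Log2 fold change, LDL over PBS, of each tested gene in the gluconeogenesis set and in 6 related lists, with blue for genes called lower, red for genes called higher, gray for the rest and a black bar for the median of the list. Pck2 lies alone among the members at -1.32, the list of ATF4 targets holds 10 blue points and has its median at -0.71, and the medians of the other related lists are between -0.09 and 0.34.

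The genes most like Pck2 across the 6 libraries, among 11938 others whose normalized counts averaged 100 or more, were Gpt2 (Pearson r = 0.994), Sgo1 (0.994), Itgb3bp (0.994), Ivd (0.992) and Inpp5j (0.992). These correlations describe 6 libraries that differ in treatment, so the difference between treatments enters each of them. For Pck1, the same ranking gave Ino80d (0.992), Ahcyl1 (0.990), Ubxn7 (0.990), Gm9027 (0.977) and Tut4 (0.962), and it rests on the 6 to 21 reads per library given above.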

How the data were processed

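RNA-Seq was compared in organoids of 3 mice, each treated with LDL and with PBS (6 libraries). The authors made stranded libraries after ribosomal RNA removal, aligned reads to GRCm39 with STAR and counted them with featureCounts, and they deposited signal values that are normalized counts, the reads of a library divided by 1 factor. The annotation release is not given in the sources used here. Whole reads were recovered for 100% of values (tolerance 0.01 reads). Names came from GENCODE M39 (54749 of 55416 identifiers matched) and promoters from RefSeq.

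Log2(normalized count + 1) was fitted with limma 3.58.1 (R 4.3.3, eBayes with a trend, two-sided, Benjamini-Hochberg adjustment) over 18459 genes whose mean reached 10. On this scale changes of low genes are understated. The mouse is not in the main model, as the paper gives no design formula for its DESeq2 fit, although it used paired tests for other organoid measurements. Libraries of a mouse share an animal identifier, and their deviations from the treatment means correlated across genes with r = 0.484, 0.421 and 0.462. Alternatives were other pseudocounts, filters and scalings, the mouse as a block, left-out libraries, and edgeR 4.0.16 and DESeq2 1.42.0 on recovered reads. The members, lists, motifs and rule for named genes were chosen with earlier results of these data known. The rule named all members, called or extreme genes of each list, and the 5 genes most like Pck1 and Pck2. Gapdh and other genes given as examples of a list, and the genes overlapping members, were named for their place in the pathway or genome. Some genes are not reported here.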

Additional observations from a re-analysis of the deposited data

How the results depend on the processing

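The fall of Pck2 kept its direction in all 18 alternatives, with log2 fold changes from -1.5 to -1.2, and it was called in 13 of them, including the replicate block (-1.32), edgeR and DESeq2. It was not called without any single PBS-treated library or the LDL-treated library of mouse 3 (range over left-out libraries -1.5 to -1.2) or without both libraries of mouse 3 (-1.28). The count of members called lower, 1, was accordingly 0 to 2 with 1 library left out and 0 without mouse 3, and no alternative called a member higher. Over the whole table, 2 to 1133 genes were called lower with 1 library left out, against 73 with all libraries. The log2 fold change of Pck1 ranged from -0.53 to 0.31 with 1 library left out and was 0.11 without mouse 3. It could not be tested at a mean of at least 50. Among members that were not called, signs turned for Pcx (-0.015 to 0.31 with 1 library left out, -0.094 without mouse 3), Fbp1 (-0.99 to 0.13), Fbp2 (-0.019 to 0.28) and G6pc1 (-0.52 to 0.48 with 1 library left out, -0.21 without mouse 3, -0.057 with quantile normalization), while G6pc3 and Slc37a4 kept theirs in all 18. The 12 genes of related lists called in either direction became 23 with the replicate block, 25 with edgeR and the block, 22 with DESeq2 without or with the block, 2 to 28 with 1 library left out and 0 without mouse 3. Without mouse 3, in a fit with fewer libraries, no gene was called over the whole table. In that limma fit 764 and 508 genes had an unadjusted p-value under 0.05 and were higher and lower. Whether the number of libraries or the mouse left out accounts for the lost calls was not tested. With 3 mice the intervals of Pck1, Fbp1 and G6pc1 from limma without the block hold changes beyond 1.5-fold in both directions. With the replicate block only that of Pck1 did, from 0.468-fold to 1.53-fold. The interval of Fbp1 then ran from 0.496-fold to 1.19-fold, and that of G6pc1 from 0.739-fold to 1.37-fold.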

Other observations

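Glucose transport and the paralogs of the members lie next to the pathway. Slc2a1, the basal glucose transporter, was called higher with LDL (754 ± 45.3 with PBS and 1400.4 ± 224.8 with LDL, SD, n = 3, log2 fold change 0.88, adjusted p = 0.0269 from limma), the only call among 4 hexose transporters. Slc2a2, through which enterocytes release glucose, had a log2 fold change of 0.17, Slc2a5, the fructose transporter, of 0.44, and Slc5a1, the sodium-coupled glucose transporter, of -0.35, none of them called. The phosphate-linked transporters Slc37a1, Slc37a2 and Slc37a3 had log2 fold changes of 0.18, 0.20 and 0.26 and were not called, whereas their relative Slc37a4 had -0.30. G6pc2, the glucose-6-phosphatase form of pancreatic islets, had 0 reads in all 6 libraries, which allows up to 3 reads per library by counting error.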
